A study of Homo sapiens with 66 samples.

Results

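The comparison concerned what ADAR targeting added in hnRNPC-deficient cells on day 4 after nucleofection, which genes rose and which of them belong to the interferon response. It used 6 of the 66 libraries of the series, chosen by their labels alone. In 3 of them a gRNA to hnRNPC had been combined with a gRNA to ADAR (ADAR+hnRNPC), and in the other 3 it had been combined with the control gRNA NC1 (hnRNPC). All 6 came from THP-1, a human monocytic leukemia line, in a clone that was STING deficient and Cas9 transgenic, kept in medium and harvested as whole cells. Beside them stood libraries of the same clone with the same 2 groups on day 3 and day 5, and of day 4 with NC1 alone (CTRL), with the ADAR gRNA and NC1 (ADAR), and with NC1 and IFN-α during the last day (IFN-α), each with 3 libraries. The groups were nucleofected populations of 1 clone, STING (the adaptor of cytosolic DNA sensing) was missing in all of them, and day 0 was the nucleofection.

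hnRNPC is a nuclear RNA-binding protein that covers uridine-rich tracts of pre-mRNA, including those of antisense Alu elements, and keeps them from being used as exons. ADAR converts adenosine to inosine in double-stranded RNA (dsRNA). Unedited dsRNA in the cytosol can be bound by MDA5 (gene IFIH1), which signals through MAVS to IRF3 and NF-κB and so to the transcription of IFNB1. Secreted IFN-β binds IFNAR1 and IFNAR2, and the kinases JAK1 and TYK2 then activate the transcription complex ISGF3, which binds the interferon-stimulated response element (ISRE) in promoters of interferon-stimulated genes (ISGs).

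The sequences that define the 2 groups are the gRNAs named by the study for these libraries, shown here as the genomic target in lower case with the PAM, the 3 bases Cas9 requires beside it, in capitals.
hnRNPC.2: gagattcccaatgaatacacGGG
ADAR.2: tatatctcgggccttggtaAGG
The hnRNPC gRNA matched the plus strand of chr14:21702284-21702303 (GRCh37), in exon 3 of the canonical HNRNPC transcript and in coding sequence of 24 annotated transcripts. A second exact match with a PAM lay on the minus strand of chr2:190788111-190788130, in the pseudogene HNRNPCP2 within C2orf88. The ADAR gRNA matched 1 place, the plus strand of chr1:154574128-154574146, in exon 2 of the canonical ADAR transcript and in coding sequence of 18 transcripts. The positions cover the target without the PAM.

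The 6 libraries held 108469385 to 152829008 counts on genes, and the 48 libraries of the same experiment 95107690 to 152829008. Values are given as CPM, the count of a gene relative to the library size scaled by a TMM factor, which lay between 0.992 and 1.14 in the 6 libraries. No pair of libraries within a group was a copy of another (chi-square per gene 20.1 to 66.7). Markers of the monocytic line summed to 1118 to 1187 CPM with hnRNPC gRNA and to 1084 to 1176 CPM with both gRNAs, with FCN1 at 0 in all 6 libraries. The 11 markers of other cell types summed to 4.07 to 5.27 and 3.77 to 4.79 CPM, respectively, and HBB was at 0. The labels number the libraries of a group 1 to 3, and the study describes them as independent experiments.

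HNRNPC transcript was low in both groups, as both carried the gRNA. It was 336, 343 and 355 CPM with hnRNPC gRNA and 294, 317 and 333 CPM with both gRNAs, against 779 ± 48.2 CPM in CTRL cells (SD, n = 3). All ADAR+hnRNPC libraries lay below all hnRNPC libraries in HNRNPC, as in 19.7% of genes tested. The difference did not pass the threshold (log2 fold change −0.13 ± 0.06 SE, edgeR adjusted p = 0.0825). ADAR transcript was 381, 444 and 407 CPM with hnRNPC gRNA and 420, 461 and 485 CPM with both gRNAs, and the ranges of the groups overlapped (log2 fold change 0.15 ± 0.08, edgeR adjusted p = 0.169). The transcript level of ADAR therefore did not separate the groups on day 4, and the label of the ADAR gRNA was checked in editing instead.

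A-to-I editing separated them. Over 164775 sites with at least 10 reads in each of the 6 libraries, 4.53, 4.94 and 5.17% of reads were edited with hnRNPC gRNA. With both gRNAs the shares were 2.04, 2.16 and 2.18%. All ADAR+hnRNPC libraries lay below all hnRNPC libraries, by 2.75 percentage points between the means (4.88 ± 0.324% against 2.13 ± 0.0753%, SD, n = 3; two-sided exact permutation test p = 0.1, the smallest that 3 against 3 libraries allow). The 95% Wilson intervals, which cover counting error only, were narrow (2.03 to 2.05% in the library with the lowest share). Editing in ADAR-targeted cells without hnRNPC gRNA was 1.86 ± 0.112%, in CTRL cells 4.5 ± 0.178% and in IFN-α–treated cells 8.51 ± 1.10%, and all 3 ADAR+hnRNPC libraries lay above all 3 ADAR libraries (1.74 to 1.96%). The sites were chosen by reads in the 6 libraries alone. The ADAR libraries had values at 164322 to 164404 of these sites, with no minimum of reads. Whether the choice of sites accounts for the difference from the ADAR libraries was not tested. Within editing cluster regions (ECRs, stretches of clustered editing sites that the authors extended and merged), the same held region by region. Of 1915 ECRs with at least 5 sites and 100 reads in every library, 1544 (80.6%) were edited less in every ADAR+hnRNPC library than in any hnRNPC library and 1 (0.0522%) was edited more. The median ECR went from 4.81 to 1.96% edited reads.

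**Figure D1:**
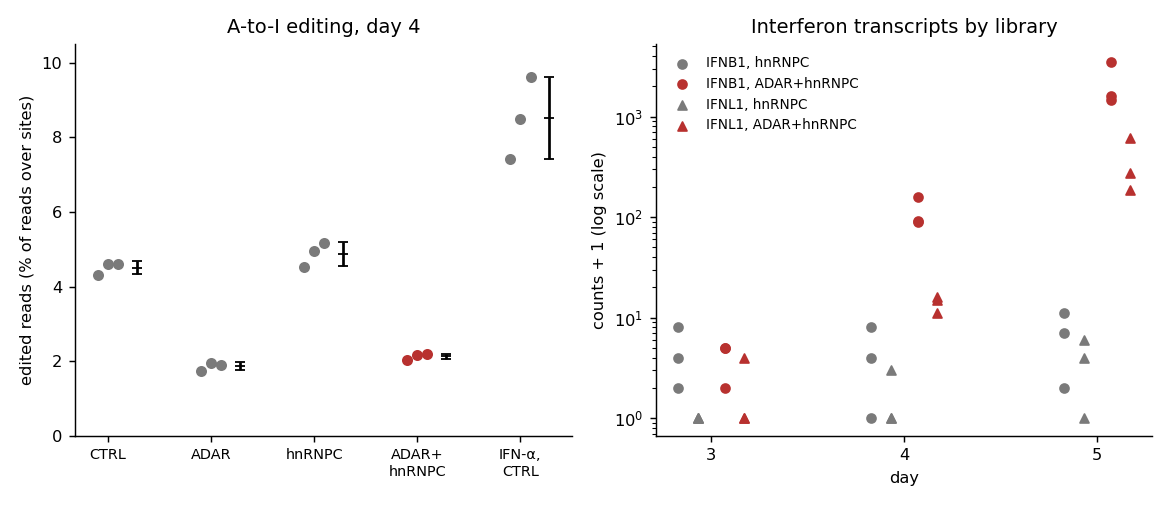
Percent of reads edited over A-to-I sites in each day-4 library of 5 groups (left; points are libraries, bars the mean ± SD of 3) and counts of IFNB1 (circles) and IFNL1 (triangles) in each library of the hnRNPC and ADAR+hnRNPC groups on days 3 to 5 (right; 1 was added to each count and the axis is logarithmic). Editing was 2.04 to 2.18% with both gRNAs and 4.53 to 5.17% with hnRNPC gRNA, and IFNB1 rose from at most 7 counts to 89, 91 and 157 on day 4.

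With ADAR added, 158 genes rose on day 4 and none fell, with calls made at an absolute difference of 1 or more on the log2 scale and an edgeR adjusted p up to 0.05. These were 1.20% of the 13193 genes tested, and their median log2 fold change was 1.41, beside 0.0012 over all genes tested. Of the 158 genes, 140 are annotated as protein coding. The count of 0 lower genes also held with limma-voom and with DESeq2, and 1 gene passed at an unadjusted p under 0.05, RN7SL396P, a copy of the 7SL RNA gene, which held under 4 CPM in every library. It was also the 1 gene called lower in the replicate block fit, which pairs libraries by number (log2 fold change −1.46, edgeR adjusted p = 0.0473). Most differences were small: at the adjusted p alone, 1767 genes were higher (13.4%) and 2026 were lower (15.4%), and in 2669 genes (20.2%) all ADAR+hnRNPC libraries lay above all hnRNPC libraries, against 2594 (19.7%) below. Just inside the fold threshold lay FSD1L (1.01) and PPP4R1L (1.01), and just outside it OPTN (0.998) and BBC3 (0.995).

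The chemokine genes CXCL11 and CXCL10, whose products draw T cells through the receptor CXCR3, showed the largest differences. CXCL11 (chr4:76954835-76962568, minus strand; all gene positions are GRCh37) had 3, 0 and 0 counts with hnRNPC gRNA and 204, 222 and 355 counts with both gRNAs, a ratio of 309 with an exact 95% interval of counting error from 105 to 1502. CXCL10 (chr4:76942271-76944650, minus strand) was 0.0642, 0.0612 and 0.0593 CPM with hnRNPC gRNA and 7.04, 6.46 and 12 CPM with both (log2 fold change 7.09 ± 0.45, edgeR adjusted p = 7.63e-15). Neither gene overlapped between the groups, and both were close to undetected without the ADAR gRNA.

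Antiviral ISGs followed. IFIT1 (chromosome 10), which binds viral RNA lacking cap methylation, was 0.735, 0.510 and 0.685 CPM with hnRNPC gRNA and 16.9, 20.3 and 41.5 CPM with both gRNAs (log2 fold change 5.35 ± 0.33). IFI44L, on chromosome 1, was 0.314, 0.0748 and 0.349 CPM against 6.04, 6.31 and 12.3 CPM (5.06 ± 0.35). OASL, an OAS-like protein that enhances RIG-I signaling, was 0.778, 0.755 and 0.922 CPM against 10.9, 10.7 and 21.5 CPM (4.13 ± 0.26). In each of these genes the groups were far apart, and the third ADAR+hnRNPC library lay well above the other two. IFI44, the neighbor of IFI44L, went from 0.450, 0.503 and 0.593 to 7.17, 6.83 and 12.8 CPM (4.11 ± 0.24). MX1, a dynamin-like GTPase that blocks virus replication, went from 5.24, 5.51 and 6.61 to 55.0, 62.3 and 108 CPM (3.70 ± 0.19). IFIT2 went from 4.32, 4.61 and 4.95 to 34.0, 39.1 and 68.2 CPM (3.35 ± 0.21). In these 3 genes too, library 3 was the highest. The edgeR adjusted p of the 6 genes lay between 7.13e-17 and 9.97e-14.

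Of the 12 genes with the largest log2 fold changes, the other 4 were not called with IFN-α. H2AC25, a histone H2A gene, was 4.12, 5.69 and 7.36 CPM with hnRNPC gRNA and 68.9, 67.1 and 89.3 CPM with both (log2 fold change 3.71 ± 0.27), and its mean was 26.9 CPM in CTRL and 24.2 CPM in IFN-α–treated cells. ICAM1, an adhesion molecule and NF-κB target, was 0.942, 0.728 and 1.02 CPM against 11.2, 10.3 and 11.3 CPM (3.61 ± 0.26). Here the 3 ADAR+hnRNPC libraries were level, unlike those of the ISGs above. ADAM28, a membrane metalloprotease, went from 0.214, 0.456 and 0.329 to 3.66, 3.09 and 3.30 CPM (3.32 ± 0.30). INHBE, an inhibin subunit and known target of the integrated stress response, went from 1.46, 1.57 and 2.11 to 13.9, 13.7 and 16.4 CPM (3.09 ± 0.45). The edgeR adjusted p of these 4 genes lay between 2.2e-13 and 1.72e-06. The log2 fold change with IFN-α was −0.15 for H2AC25, −0.46 for ICAM1, 0.19 for ADAM28 and 0.40 for INHBE.

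**Figure D2:**
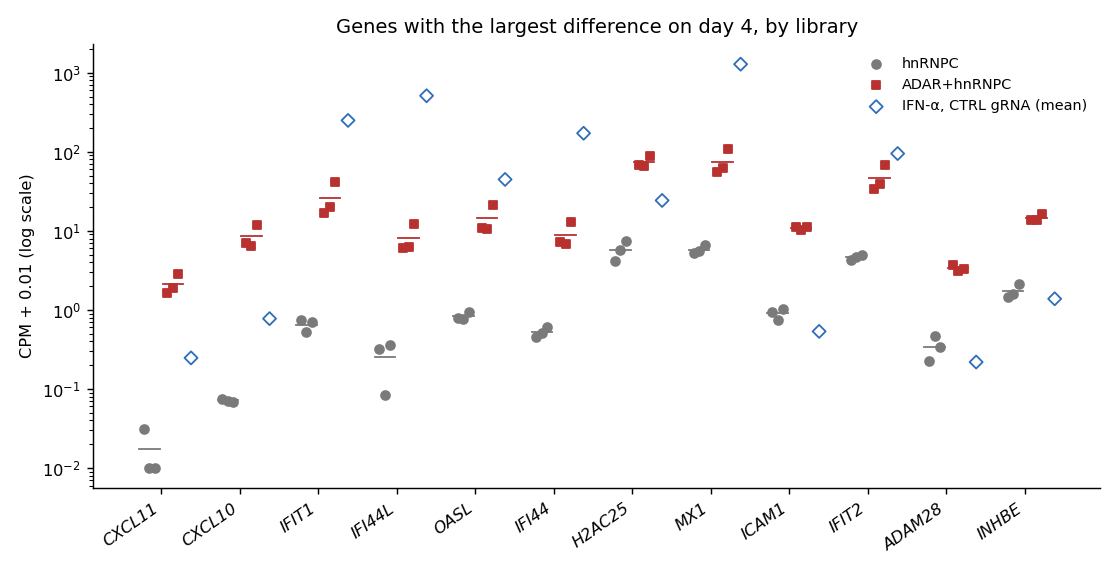
Normalized level (CPM + 0.01, logarithmic axis) of the 12 genes with the largest log2 fold change on day 4; each point is 1 library, bars are group means, and diamonds are means of 3 IFN-α–treated CTRL libraries. The groups did not overlap in any of the 12 genes; H2AC25, ICAM1, ADAM28 and INHBE lay above their IFN-α mean with both gRNAs, as did CXCL10 and CXCL11.

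Promoter sequence of the leading genes is shown for the 2 elements through which ISGF3 and NF-κB are known to act. Promoters were 300-base windows around RefSeq start sites (GRCh38.p14, a build other than that of the gene positions above), searched on both strands for the ISRE (GAAANNGAAA, found in 3.57% of 35116 promoters), the amino acid response element bound by ATF4 (TGATGNAA, 3.62%) and the NF-κB consensus (11.3%). Each line gives 30 bases on the strand of the gene, 5′ to 3′, with the match in capitals.
CXCL10 ISRE: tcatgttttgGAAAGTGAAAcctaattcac
CXCL10 NF-κB: gaggagcagaGGGAAATTCCgtaacttgga
CXCL11 NF-κB: gactcaaagaGGGAAATTCCtgtgccataa
IFIT1 ISRE: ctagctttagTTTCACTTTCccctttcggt
IFI44L ISRE: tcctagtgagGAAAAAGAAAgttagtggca
IFI44 ISRE: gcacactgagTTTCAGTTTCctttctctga
MX1 ISRE: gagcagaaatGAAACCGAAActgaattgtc
The windows lie at chr4:76023699-76023728 and chr4:76023655-76023684 (CXCL10), chr4:76036127-76036156 (CXCL11), chr10:89392497-89392526 (IFIT1), chr1:78620274-78620303 (IFI44L), chr1:78649761-78649790 (IFI44) and chr21:41420559-41420588 (MX1). CXCL10 and CXCL11 share the NF-κB letters GGGAAATTCC, and IFIT1, IFI44L, IFI44 and MX1 each hold an ISRE, on either strand. CXCL10, IFIT1, IFI44L and MX1 held further matches not shown, and those of MX1, over several promoters, included 2 of NF-κB and 1 of the ATF4 element, so the NF-κB letters were not limited to the chemokine genes. The promoter windows of H2AC25 and ICAM1 held none of the 3 motifs in these letters, and OASL, IFIT2, ADAM28 and INHBE had no promoter in the table. A match is a description of letters, not of binding. Promoters were at hand for 37 of 54 and 70 of 104 of the higher genes with and without a rise under IFN-α, below 80% in both, so a comparison of motif shares between these sets was void.

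Interferon genes themselves were at the edge of detection on day 4. Of 22 interferon ligand genes, 8 had a count in any of the 6 libraries. IFNB1 had 0, 7 and 3 counts with hnRNPC gRNA and 89, 91 and 157 counts with both gRNAs, a ratio of 40.0 (exact 95% interval of counting error 21.5 to 84.2). It lay under the filter on low counts, and without that filter (45744 genes) its log2 fold change was 5.26 ± 0.39 (edgeR adjusted p = 2.9e-39). Adjusted p values of that fit cannot be set against those of the main fit, where CXCL10 at 7.09 ± 0.45 had 7.63e-15 (edgeR). IFNL1, a type III interferon that signals through its own receptor to ISGF3, had 0, 0 and 2 counts against 10, 14 and 15 counts, a ratio of 23.2 (interval 5.995 to 198; edgeR adjusted p = 4.6e-05 without the filter). No other ligand reached more than 6 counts in a library, and the genes with counts were IFNW1, IFNK, IFNA10, IFNA21, IFNL2 and IFNG. CTRL cells held 1, 7 and 0 counts of IFNB1, ADAR-targeted cells 5, 8 and 10, and IFN-α–treated cells 0, 0 and 5, so counts of the order seen with both gRNAs were in none of these libraries. On day 3 IFNB1 had 1, 3 and 7 counts with hnRNPC gRNA and 4, 1 and 4 with both, and on day 5 it had 1, 10 and 6 against 1478, 1623 and 3517. IFNL1 reached 186, 273 and 608 counts with both gRNAs on day 5.

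Among dsRNA sensors and adaptors, 2 of 11 genes tested rose on day 4 (median log2 fold change 0.29, with the 2 of 11, or 18.2%, beside 1.20% of all genes). DHX58 (LGP2, which assists MDA5) went from 2.76, 2.65 and 3.21 to 7.28, 6.64 and 10.4 CPM (1.49 ± 0.16, edgeR adjusted p = 2.39e-09). RIGI, the sensor of 5′-triphosphate RNA, went from 13.3, 14.4 and 15.1 to 30.6, 33.6 and 51.6 CPM (1.43 ± 0.13). For IFIH1 (MDA5) the log2 fold change was 0.93 and for EIF2AK2 (PKR, a dsRNA-activated kinase) 0.50, and both passed the adjusted p but not the fold threshold, whereas MAVS was at 0.06 and TBK1, the kinase of IRF3, at −0.36.

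Beside 1.20% of all genes, 2 of 13 genes of the interferon receptors and ISGF3 rose (median 0.02). These were USP18, which damps signaling at IFNAR2 (2.02 ± 0.20), and IRF9 (1.28 ± 0.30), the DNA-binding part of ISGF3. IRF9 was 3.88, 1.84 and 2.34 CPM with hnRNPC gRNA and 8.41, 4.79 and 6.40 CPM with both, so its groups were separate but close. STAT2 was at 0.51, past the adjusted p alone, and the receptor chains IFNAR1 (−0.13) and IFNAR2 (0.01) were near 0. Among 7 interferon regulatory factors, IRF7, which drives the transcription of IFN-α genes, went from 9.31, 8.96 and 11.1 to 39.3, 33.5 and 54.2 CPM (2.11 ± 0.18, edgeR adjusted p = 1.80e-11). IRF3, which is activated by phosphorylation, was at 0.15.

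The effector families differed in how many members had risen by day 4, while 1.20% of all genes tested had. All 4 IFIT genes tested rose (IFIT3 2.85 ± 0.21, IFIT5 1.68 ± 0.16; median 3.10), as did 4 genes of the OAS family, whose enzymes make 2′-5′ oligoadenylate. OAS2 went from 8.40, 8.70 and 9.20 to 41.9, 51.1 and 79.3 CPM (2.71 ± 0.17), and OAS1 had a log2 fold change of 2.45 and OAS3 of 2.41. Of 11 MX, viperin and IFI genes, 8 rose, among them IFI27 (2.67 ± 0.33). Of 6 genes of ISG15 conjugation, which links the ubiquitin-like ISG15 to proteins, 4 rose: ISG15 went from 6.99, 7.05 and 7.49 to 23.0, 27.8 and 45.0 CPM (2.15 ± 0.18), USP18, HERC6 (1.22) and HERC5 (1.12) rose too. All 4 chemokine genes tested of 15 listed rose, CXCL8 by 1.64 ± 0.20 and CCL2 by 1.53 ± 0.34 beside the 2 described above.

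In other ISG families fewer genes had risen to the threshold, beside 1.20% of all genes. Of 9 antiviral TRIM genes 1 rose, TRIM22, which went from 6.59, 5.71 and 5.59 to 31.3, 25.4 and 41.0 CPM (2.45 ± 0.18). Of 7 IFITM, tetherin and SAM-domain genes IFITM1 (1.32 ± 0.17) and SAMD9L (1.24 ± 0.10) rose, and of 7 PARP genes PARP9 (1.15 ± 0.11) and PARP12 (1.03 ± 0.12). Without ADAR+hnRNPC library 3 the log2 fold changes of PARP9 and PARP12 were 0.95 and 0.86. Of 5 guanylate-binding protein genes, GBP2 went from 1.88, 1.52 and 2.62 to 6.72, 6.09 and 8.92 CPM (1.85 ± 0.38), and GBP1, at under 0.6 CPM in all 6 libraries, had a log2 fold change of 2.45 ± 0.53. None of 5 PML and SP100 body genes (SP110 0.93 ± 0.11), of 5 APOBEC3 genes (APOBEC3B −0.32 ± 0.12) and of 3 HLA class II genes (CD74 0.38 ± 0.06) was called, and 1 of 10 HLA class I genes was, ERAP2, a peptide-trimming aminopeptidase (1.28 ± 0.15). Genes were filtered on their mean over all 48 libraries, so genes that were low without a response could pass through libraries in which they were high. Of the 158 genes, 20 were under 1 CPM in every hnRNPC library, among them CXCL10, CXCL11, IFIT1, IFI44L, IFI44, OASL, IFI27, GBP1 and CCL2. The counts and medians of the chemokine, IFIT, OAS, MX and IFI and guanylate-binding protein lists rest in part on such genes and are given as a description. Lists with 0 genes called by edgeR, here and in what follows, also had 0 with limma-voom, with DESeq2 and at an unadjusted p under 0.05 with the same fold threshold.

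**Figure D3:**
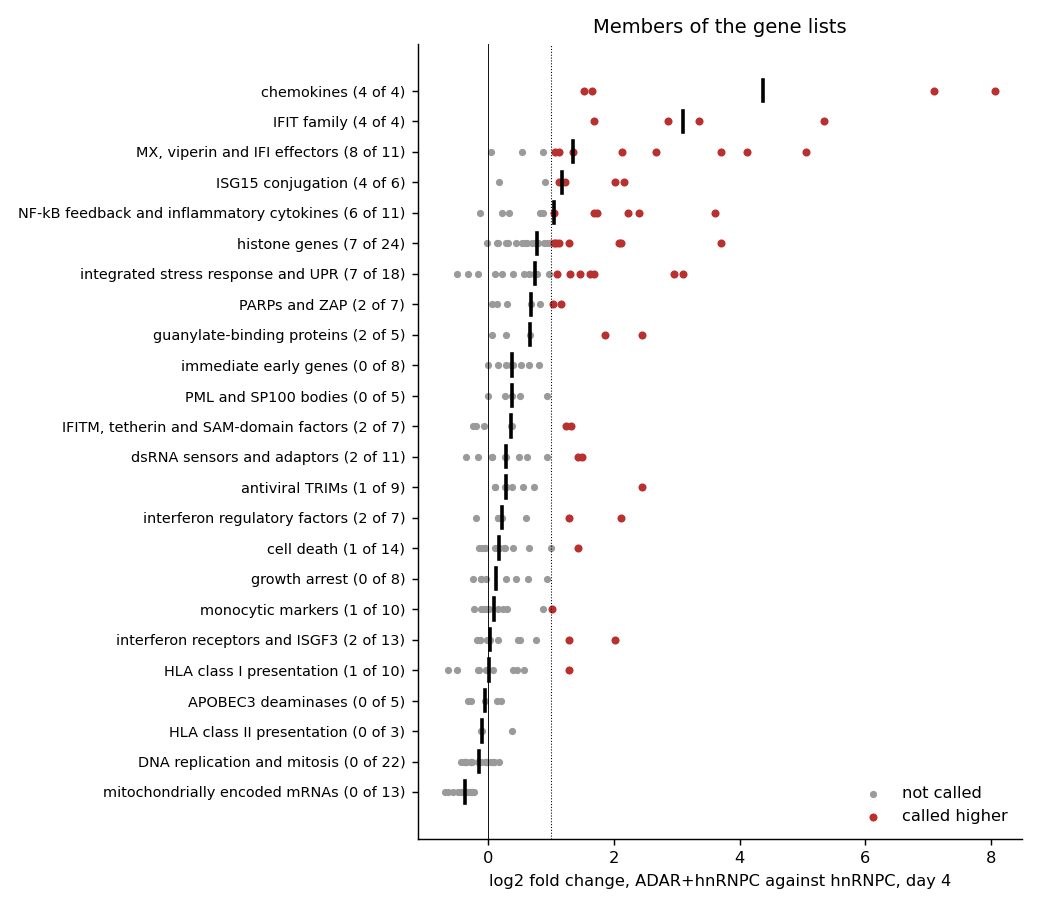
Log2 fold change on day 4 of each tested member of the gene lists shown (points; red for genes called higher, gray for the rest) with the median of the list (black bar) and, in parentheses, the genes called of those tested. The dotted line is the fold threshold; the median was 3.10 for the IFIT family and −0.14 for DNA replication and mitosis.

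A second group of genes rose that were not called with IFN-α. Of the 158 genes, 54 (34.2%) were also called higher in IFN-α–treated against CTRL cells, 2 groups that took no part in the comparison, and 104 were not. At the adjusted p alone, 12 of the 104 were higher with IFN-α and 7 were lower. Conversely, 54 of the 159 IFN-α–induced genes (34.0%; the 159 are 1.21% of the genes tested) had risen by day 4 with ADAR and hnRNPC gRNAs, against 1.20% of all genes. Some of these genes, such as CXCL10, CXCL11, IFI44L and IFI27, were low without a response. They could pass the filter through libraries in which they were high, so the share of 34.0% is given as a description. The median log2 fold change on day 4 was 0.68 over the 159 genes and 0.38 over the 105 that were not called. Of the 159, 109 were higher and 1 was lower at the adjusted p alone. A test of the difference between both responses called 209 genes with a larger difference on day 4 than with IFN-α (1.58% of those tested) and 122 with a smaller one (0.925%). IFI44L had risen by 5.06 on day 4 and by 11.29 with IFN-α, and IFI27 by 2.67 and 10.92. For CXCL10, at 7.09 on day 4 and 5.41 with IFN-α, the difference was 1.68 ± 1.78 and was not called (edgeR adjusted p = 0.519). With 0, 6 and 1 counts in the CTRL libraries, the test could not decide for this gene.

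**Figure D4:**
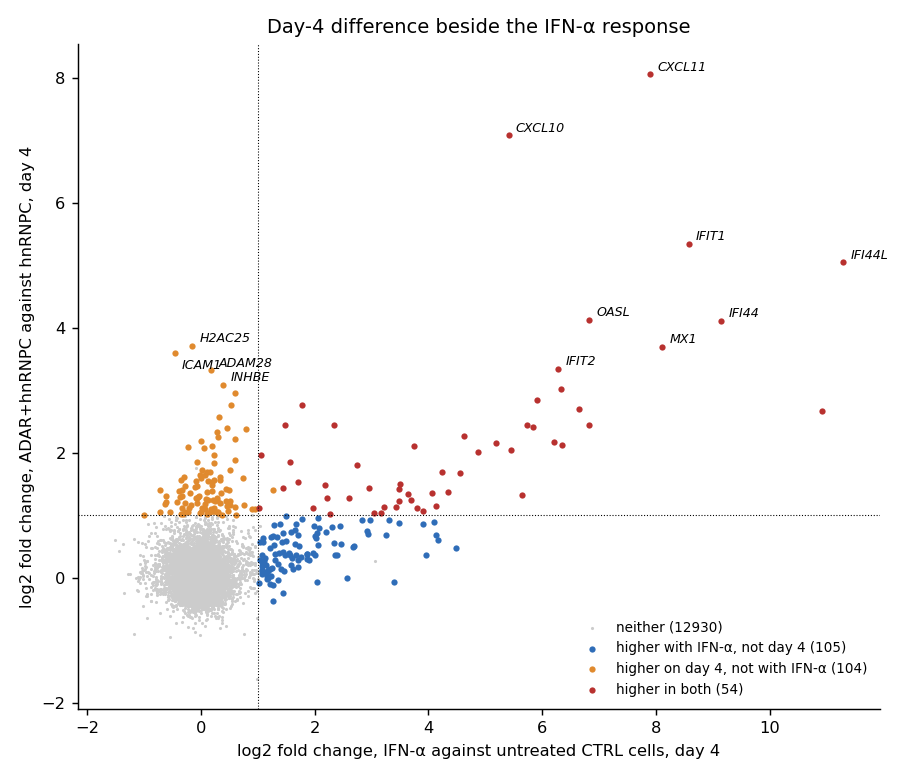
Log2 fold change of ADAR+hnRNPC against hnRNPC cells on day 4 (vertical) and of IFN-α–treated against CTRL cells (horizontal) for each of 13193 genes, colored by the calls; dotted lines mark the fold threshold. Of the 158 genes higher on day 4, 54 were also higher with IFN-α and 104 were not, among them ICAM1, H2AC25, ADAM28 and INHBE near 0 on the horizontal axis.

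Targets and inhibitors of NF-κB were among the 104 genes. Of 18 genes listed for NF-κB feedback and inflammatory cytokines, 11 were tested and 6 of these rose (median 1.04), beside 1.20% of all genes. With hnRNPC gRNA IL1B was at 0.81 to 0.97 CPM and ICAM1 at 0.73 to 1.02 CPM. Both could pass the filter through libraries in which they were high, so the count of 6 is given as a description. None of the 6 was called with IFN-α, which called 1.21% of all genes, but TNFAIP3 (0.60), BIRC3 (0.47) and RELB (0.51) were higher with it at the adjusted p alone. Beside ICAM1 these were BIRC3, an inhibitor of apoptosis (2.23, 2.51 and 2.23 CPM against 10.8, 12.3 and 13.9 CPM; 2.41 ± 0.15, edgeR adjusted p = 8.29e-15), TNFAIP3, the feedback inhibitor A20 (8.78, 11.4 and 11.8 CPM against 52.2, 47.6 and 49.4 CPM; 2.22 ± 0.15), and RELB, a subunit of the noncanonical pathway (1.72 ± 0.17). IL1B (1.69), an inflammatory cytokine, and NFKB2 (1.04) also rose. NFKBIA, which encodes IκBα, was at 0.82 and IL23A at 0.86, past the adjusted p alone.

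Genes of the integrated stress response were another set. In this response kinases phosphorylate eIF2α, translation falls and the factor ATF4 is made. Of 18 genes of this response and of the unfolded protein response, 7 rose (median 0.75), beside 1.20% of all genes. None of the 7 was called with IFN-α, which called 1.21% of all genes, and ATF3 was at 0.90 with it (edgeR adjusted p = 0.0106). CHAC1, which degrades glutathione, went from 0.963, 1.48 and 1.70 to 11.9, 9.35 and 10.9 CPM (2.96 ± 0.56, edgeR adjusted p = 1.14e-04). TRIB3, a pseudokinase, went from 43.4, 54.7 and 64.0 to 161, 167 and 194 CPM (1.69 ± 0.20), and DDIT4, an inhibitor of mTORC1, from 3.10, 3.99 and 5.45 to 12, 11.2 and 15.3 CPM (1.61 ± 0.40). With INHBE, SESN2 (1.46), ASNS, asparagine synthetase (1.31), and ATF3 (1.10) completed the 7. ATF4 transcript was at 0.10, and the endoplasmic reticulum chaperones HSPA5 and HSP90B1 were at −0.17 and −0.51. With the ADAR gRNA and no hnRNPC gRNA none of the 18 was called (median 0.29). There INHBE was at 1.43, CHAC1 at 1.32, TRIB3 at 0.33 and DDIT4 at 0.30. The difference between both effects of ADAR targeting was called for 1 of the 18, beside 0.826% of all genes.

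Histone genes were a further set, a list formed after the values were seen. Of 24 tested, 7 rose on day 4 (median 0.78; 1.20% of all genes rose), and 20 were higher and none lower at the adjusted p alone, beside 13.4% and 15.4% of all genes. Beside H2AC25 the largest was H1-6, a linker histone gene, which went from 3.62, 3.54 and 5.68 to 17.2, 17.4 and 20.7 CPM (2.11 ± 0.16, edgeR adjusted p = 8.98e-13). Its mean was 3.50 CPM in CTRL cells, so with both gRNAs it lay above that level. H2BC26 (2.08 ± 0.14) did not: its means were 12.9 CPM with hnRNPC gRNA, 54.6 CPM with both and 68.2 CPM in CTRL cells. The authors kept uniquely mapped reads, and histone genes are near-identical copies, so the level of a single copy is uncertain. At the same time none of 22 genes of DNA replication and mitosis was called (median −0.14). Of these, 10 were lower and none higher at the adjusted p alone (15.4% and 13.4% of all genes), and CCNE2, a cyclin of S phase entry, was lowest (105, 111 and 105 CPM against 73.8, 80.5 and 83.2 CPM; −0.44 ± 0.06, edgeR adjusted p = 6.16e-07). GADD45A was at 0.93 ± 0.08 among 8 growth arrest genes, none of which was called.

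In cell death genes 1 of 14 rose, beside 1.20% of all genes. This was XAF1, an antagonist of XIAP (19.4, 20.1 and 19.3 CPM against 44.6, 47.8 and 65.4 CPM, log2 fold change 1.43 ± 0.12). Of 10 monocytic markers ITGAM, the integrin CD11b, rose (18.7, 17.0 and 21.4 CPM against 40.8, 35.9 and 38.6 CPM; 1.01 ± 0.10), and it fell under the fold threshold when either ADAR+hnRNPC library 1 (0.97) or hnRNPC library 2 (0.94) was left out. ADARB1, the second editing enzyme, was at 0.30 ± 0.12 (edgeR adjusted p = 0.0535). Among 13 mitochondrially encoded mRNAs none was called (median −0.36, largest MT-ATP8 −0.68 ± 0.40), and mitochondrial genes held 0.22 to 0.42% of the counts of the 6 libraries. Of 8 immediate early genes none was called (FOSB 0.81 ± 0.63, edgeR adjusted p = 0.363), and none of 4 genes listed as lowered by hnRNPC loss was either (EIF3D 0.17 ± 0.05).

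The third ADAR+hnRNPC library ran ahead of the others in ISGs. It was the highest of the 3 in 51 of the 54 IFN-α–induced genes that had risen (94.4%), in 77 of the other 104 (74%) and in 41.8% of all genes tested. Its level over the mean of libraries 1 and 2 had a median of 1.51 over the 54 genes, of 1.14 over the 104 and of 1.03 over all genes, and within the hnRNPC libraries the median of the same ratio was 1.09, 1.19 and 1.03. Over the 104 genes the ratio was thus no larger with both gRNAs than with hnRNPC gRNA. On day 5 library 3 was the highest in 54 of the 54 genes, with a median ratio of 1.51. IFNB1 followed the same order on day 4, with 157 counts in library 3 against 89 and 91. Without that library 139 genes were called, 46 of them IFN-α–induced.

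A day earlier few of these genes were called, though others of the 158 passed the adjusted p alone. Among the latter were TNFAIP3 (log2 fold change 0.75), TRIB3 (0.68), RELB (0.63) and the ISG TRIM22 (0.60), whereas CXCL10, IFIT1 and MX1 did not pass it. How many did so was not counted. On day 3, 11 genes were higher with ADAR added (0.0834% of those tested), 9 of which were among the 158 (81.8% of the 11 and 5.70% of the 158), and none was lower (27 at an unadjusted p under 0.05 and the fold threshold; limma-voom called 2). The 11 were H2AC25 (1.90), H1-6 (1.55), GPX1P1 (1.45), GBP2 (1.37), TLR7 (1.35), IL4I1 (1.27), ICAM1 (1.24), GEM (1.07), SLC2A6 (1.05), ESAM (1.02) and TNFRSF10C (1.01). GBP2, TLR7 (an endosomal receptor of single-stranded RNA) and IL4I1 (an amino acid oxidase) were the 3 that IFN-α also induced. On day 4 TLR7 was 0.471, 0.877 and 1.20 CPM with hnRNPC gRNA and 4.25, 4.52 and 5.22 CPM with both (2.45 ± 0.36), and IL4I1 was 0.535, 0.857 and 1.03 against 5.04, 4.86 and 6.59 CPM (2.76 ± 0.27). GEM, a small GTPase, SLC2A6, a sugar transporter, and ESAM, an adhesion molecule, rose on day 4 by 1.40, 1.57 and 2.19. GPX1P1 (0.71 ± 0.34), a pseudogene whose reads can come from its parent, and TNFRSF10C (0.62 ± 0.19), a decoy receptor of TRAIL, did not reach the threshold. Without hnRNPC library 1 of day 3, 4 genes were called higher on that day, without hnRNPC library 2 there were 5 and without ADAR+hnRNPC library 3 there were 6.

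The 2 classes of genes are given side by side over the days. For the 54 IFN-α–induced genes the median difference between the groups, on the log2 scale, amounted to 0.22, 1.83 and 5.15 on days 3, 4 and 5, with 3, 54 and 54 genes called. For the other 104 genes it was 0.54, 1.31 and 2.05, with 6, 104 and 96 called. The day-4 values chose these genes and are given as a description. On day 5, 768 genes were higher (5.82%) and 88 were lower (0.667%), and 150 of the 158 were among the higher ones (94.9% of the 158 and 19.5% of the 768). Of the 159 IFN-α–induced genes 148 were higher on day 5. H2AC25 was 3.71 on day 4 and 3.49 on day 5 and H1-6 2.11 and 1.65, whereas MX1 went from 3.70 to 7.61 and RIGI from 1.43 to 5.86. In tests of the difference between days, 68 genes had a larger difference on day 4 than on day 3 (0.515%) and 1 a smaller one (0.00758%), and 416 had a larger one on day 5 than on day 4 (3.15%) and 85 a smaller one (0.644%). ADAR itself, an ISG in its longer form, was not called on day 4 but was on day 5 (1.72 ± 0.08), when it was 402 ± 1.67 CPM with hnRNPC gRNA and 1322 ± 174 CPM with both.

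**Figure D5:**
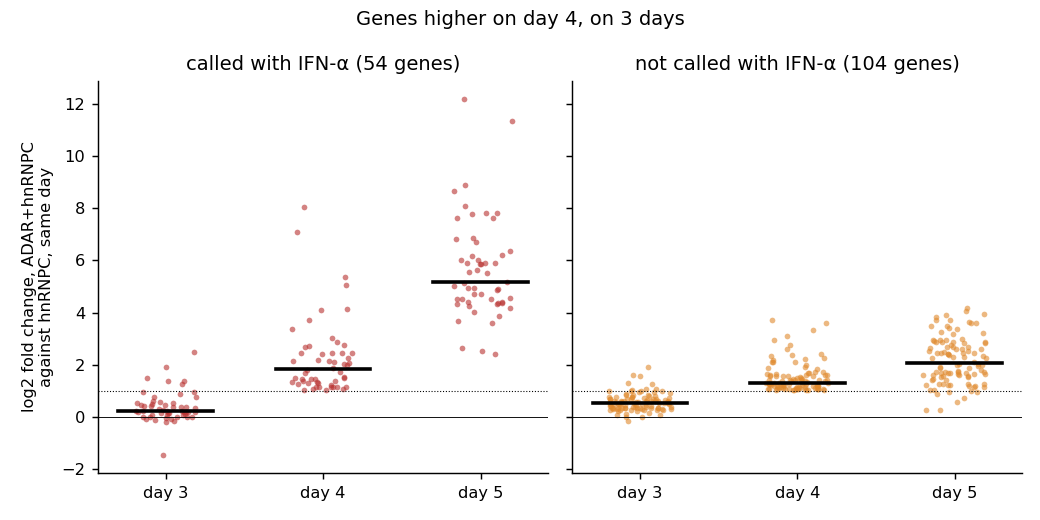
Log2 fold change of ADAR+hnRNPC against hnRNPC cells of the same day for the 158 genes higher on day 4, split into 54 genes called higher with IFN-α (left) and 104 not called (right); each point is a gene, black bars are medians and the dotted line is the fold threshold. Medians were 0.22, 1.83 and 5.15 on days 3, 4 and 5 on the left and 0.54, 1.31 and 2.05 on the right.

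Without hnRNPC gRNA the ADAR gRNA was accompanied by fewer calls. In ADAR-targeted against CTRL cells of day 4, 9 genes were higher (0.0682%) and none was lower (1 at an unadjusted p under 0.05 and the fold threshold), and all 9 were among the 158 (5.70% of the 158). CXCL11 had 23, 27 and 16 counts against 0 in every CTRL library. It was 25.5-fold higher if a floor of 3 counts is set for the CTRL group, and the exact 95% interval of counting error began at 20.1. CXCL10 had 28, 72 and 29 counts against 0, 6 and 1, a ratio of 21.3 (interval 10.1 to 54.1). The other 7 were ID3 (1.68), an inhibitor of basic helix-loop-helix factors, ADAM28 (1.58), IFIT2 (1.5), OASL (1.46), H1-6 (1.37), ESAM (1.16) and TRIM22 (1.09).

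The difference between both effects of ADAR targeting was tested as an interaction. It was positive in 109 genes (0.826% of those tested) and negative in 8 (0.0606%). Among the 12 leading genes it was called for 9, with values on the log2 scale from 1.74 (ADAM28) and 1.85 (IFIT2) to 4.31 (IFIT1) and 4.45 (IFI44L). For H2AC25 it was 3.83 and for ICAM1 3.34, and neither of these genes was called with ADAR gRNA alone (−0.12 and 0.26). For CXCL10 (2.75 ± 1.89, edgeR adjusted p = 0.391), CXCL11 (0.53 ± 1.44, edgeR adjusted p = 0.865) and INHBE (1.66 ± 0.62, edgeR adjusted p = 0.0724) the interaction was not called. The CTRL libraries held 0, 6 and 1 counts of CXCL10 and 0 in each of CXCL11, too few for the test to decide for these chemokine genes. The day-4 difference that chose the 12 leading genes is a term of the interaction, so their interaction values are given as a description.

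In total RNA of a wild-type clone, with other gRNAs to the same genes and 2 libraries a group, 495 of 13650 genes were higher (3.63%) and 73 lower (0.535%) on day 4. Of the 158 genes, 154 were tested there and 118 were higher, 28.8% of the 410 higher genes that both experiments tested. Among the 54 IFN-α–induced genes 51 of 52 tested were higher (median 1.86), and among the 104 others 67 of 102 (median 1.45). The order of the leading genes was not the same. ICAM1 was at 3.59 in the wild-type clone and 3.61 in the STING-deficient clone and INHBE at 3.96 and 3.09, whereas IFIT1 was at 2.15 and 5.35 and H2AC25 at 1.81 and 3.71. Of the 24 histone genes, 2 were higher in the wild-type clone (8.33%, median 0.29), beside 3.23% of all genes tested in both. The NF-κB list had 6 of 11 higher there (median 1.24) and the stress response list 6 of 18 (median 0.82). The clones, which also differed in the gRNAs, were not tested against each other.

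Introns and ECRs are stretches from which dsRNA could arise. Of 21876 introns tested 64 were higher (0.293%), 43 of which lay in a gene called higher, and the median over all introns was −0.11. Of 2528 ECRs 9 were higher (0.356%) with a median of −0.12 over all. At the adjusted p alone, 156 introns were higher and 280 lower, and 73 ECRs were higher and 341 lower. The 9 ECRs lay in MX1 (2 ECRs, the larger difference at chr21:42798864-42800978 with 3.61 ± 0.26), HELZ2, AJUBA, DHX58 (chr17:40253939-40256072, 1.52 ± 0.22), RIGI (chr9:32455302-32457488, 1.40 ± 0.15), NRIR, PARP9 and SLC3A2. For 7 of the 9 the gene at the site was itself called higher, the others being NRIR and SLC3A2. Neither introns (1 at an unadjusted p under 0.05 and the fold threshold) nor ECRs (0 at that p) were called lower by edgeR. Whether counting used the strand is not given in the sources used here, so reads of overlapping genes, such as IFIT1 within LIPA, cannot be told apart.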

How the data were processed

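Gene, intron and ECR values are raw counts. As the study's methods state, the authors aligned paired-end reads of TruSeq Stranded Total RNA libraries (Ribo-Zero Gold) to GRCh37 and counted uniquely mapped reads over Gencode exons, introns and ECRs. The deposited counts are whole numbers with 1 column per library. The submitters' processing notes name STAR 2.5.4a, featureCounts and bedtools. For editing sites, the authors deposited the counts of edited and of all reads per site, and sites with an empty value were left out. Whether counting used the strand, and the versions of featureCounts and bedtools, are not given in the sources used here. Columns without a sample numbered 0.

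Counts were tested in R 4.3.3 with edgeR 4.0.16 (quasi-likelihood test, 1 coefficient per group, Benjamini-Hochberg over all features tested). All 48 libraries of study 1 entered 1 fit, with library sizes times TMM factors. A gene entered the test if edgeR's mean log2 CPM over the libraries reached 0.5 (13193 of 57820), an intron at 1 and an ECR at 4.5 (here relative to ECR totals). Introns and ECRs were fitted with the library sizes and TMM factors of genes. SE is the log2 fold change over the square root of F. The wild-type clone (18 libraries of study 2) was fitted apart. limma 3.58.1 (voom) and DESeq2 1.42.0 were alternatives, as were RLE factors, no filter, the compared groups alone, a replicate block and leaving out single libraries. The fit was tested on simulated counts. Gene symbols came from an annotation lifted to GRCh37 for 55538 of 57820 IDs.

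Groups and replicate numbers were taken from the labels. The numbers were checked as pairs: deviations from the group means of same-numbered day-4 libraries correlated at 0.15 to 0.47 over genes, all 3 above 0.1. The highest correlation between other numbers was 0.10. The numbers were therefore taken to pair the libraries, which the labels do not state. The main fit and the permutation test treated the libraries as unpaired, and the replicate block used the pairs. Genes named were HNRNPC, ADAR, the 12 with the largest log2 fold change, those called on day 3, up to 4 called members of each list (otherwise the most different one), and interferon ligands with a count. Others named were chosen after their values were seen. The members and lists were chosen with earlier results of these data known, and the difference from IFN-α, the ligand test without a filter and the histone list were added after values were seen.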

Additional observations from a re-analysis of the deposited data

Results flagged for a closer look

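These results are listed because a test found that an effect differed between groups. ADAR targeting had a larger effect with hnRNPC gRNA than without it in 109 genes and a smaller one in 8 on day 4. Among the genes with the largest difference, the interaction on the log2 scale was 4.45 for IFI44L, 4.31 for IFIT1, 3.83 for H2AC25, 3.44 for IFI44, 3.34 for ICAM1, 3.01 for MX1, 2.67 for OASL, 1.85 for IFIT2 and 1.74 for ADAM28. These genes were chosen by the day-4 difference, a term of the interaction, so the values are given as a description. The effect of ADAR targeting in hnRNPC-targeted cells was larger on day 4 than on day 3 in 68 genes and larger on day 5 than on day 4 in 416 genes. It was larger than the effect of IFN-α in 209 genes and smaller in 122. Groups of 3 libraries are too small for a test of single outlying libraries.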

How the results depend on the processing

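All 158 genes called higher on day 4 were called again with RLE factors, limma-voom, DESeq2, the replicate block and the compared groups alone, which called 158 to 162. The paired fit with the replicate block moved the lower genes of day 4 from 0 to 1, those of day 3 from 0 to 1 and the lower introns from 0 to 1, and it moved no other count by over 1.5 times. Without the filter on low counts, 442 genes were higher on day 4 (99 of them IFN-α–induced) and 21 lower, 55 and 144 on day 3, and 1886 and 305 on day 5, the interaction was positive in 190 and negative in 30, 204 genes had a larger difference on day 4 than on day 3 and 727 on day 5 than on day 4, and 728 differed from IFN-α. The same setting gave 450 higher and 20 lower introns, 1 lower ECR, and 1072 higher and 204 lower genes in the wild-type clone. At the adjusted p alone, 1767 genes were higher and 2026 lower. limma-voom called 7 genes higher and 2 lower on day 3, the compared groups alone 1 lower on day 3, DESeq2 36 lower in the wild-type clone, and TMM factors of introns 1 lower intron. The difference in editing was −3.78 points over sites of at least 50 reads and −2.35 as a mean over sites. The cause of these shifts was not tested, beyond the number of genes each filter admits.

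Leaving out single libraries gave 139 to 184 higher and 0 to 1 lower genes on day 4 (1, PRMT5-DT, without hnRNPC library 2), 46 to 60 IFN-α–induced among them, 4 to 13 higher and 0 to 1 lower on day 3 (1 without ADAR+hnRNPC library 2), 702 to 821 and 68 to 129 on day 5, a positive interaction in 79 to 137 and a negative one in 2 to 10 genes (2 without hnRNPC library 2, 4 without ADAR library 3, 5 without CTRL library 1), 52 to 73 genes between days 4 and 3 and 346 to 451 between days 5 and 4, 291 to 402 against IFN-α, 51 to 70 higher and 0 to 2 lower introns (2 without ADAR+hnRNPC library 1, 1 without hnRNPC library 2 or 3), 9 to 10 higher and 0 lower ECRs, and a difference in editing of −2.93 to −2.61 points. In the wild-type clone it gave 391 to 553 higher and 88 to 137 lower genes (137 without hnRNPC library 1, 117 without ADAR+hnRNPC library 1). Among the named genes no direction reversed. Beside ITGAM, PARP9 and PARP12, named above, GPX1P1 (1.14 without hnRNPC library 3) and SP110 (1.08 without ADAR+hnRNPC library 1) passed the fold threshold. Interferon ligands other than IFNB1 and IFNL1 were too few in counts for a difference to be detectable at this depth.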
